A study of Mus musculus with 170 samples.

Results

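Complex I of the respiratory chain was examined through its nuclear genes in single cells of the embryonic mouse heart. Members were all genes of the deposited table whose symbol starts with Nduf, without Ndufa4l2 and pseudogene symbols ending in -ps. This gave 44 of 40549 genes, 37 of them subunits (Ndufa, Ndufab, Ndufb, Ndufc, Ndufs and Ndufv genes) and 7 of them assembly factors (Ndufaf genes). Cells came from the ventricular part of E9.5 hearts of C57BL/6 mice, were picked by hand and were sequenced by Smart-seq2, a full-length cDNA protocol, in 2 batches. Control hearts, labelled wild type, were Dgcr8 loxP/loxP; ROSA26 mT/mG/+ and had no Cre allele, so they carried the same floxed gene and reporter as the knockout. Conditional knockout (cKO) hearts were Mesp1Cre/+; Dgcr8 loxP/loxP; Rosa26 mT/mG/+ and are labelled Mesp1Cre/+; Dgcr8-/-. Mesp1Cre acts in early mesoderm, the source of cardiomyocytes and other heart cells, and the product of Dgcr8 works with Drosha to cut microRNA precursors from their primary transcripts. The labels name no embryo or litter, so each genotype was 1 sample, no test was run, and every difference below describes these cells only.

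Complex I takes electrons from NADH, passes them through a flavin and a chain of iron-sulfur clusters to ubiquinone, and pumps protons across the inner mitochondrial membrane. Its core subunits carry out this chemistry, the accessory subunits surround and stabilise them, and the assembly factors build the complex from separate modules without staying in it. The N module oxidises NADH, the Q module reduces ubiquinone, and the proximal and distal membrane arms hold the proton pumps, whose cores are encoded by mitochondrial DNA. Beating heart cells depend heavily on respiration once they mature, whereas the early heart tube still draws much of its energy from glycolysis.

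The table held 74 control and 69 cKO cells. Clustering on marker genes gave a cardiomyocyte-like (CM-like) class of 29 control cells (19 in batch 1, 10 in batch 2) and 66 cKO cells (33 in each batch), in which 15 of 15 cardiomyocyte markers were raised. The other classes held 22 endothelial-like and 3 erythroid-like control cells, 13 control cells led by Upk3b, and 10 cells of both genotypes led by mitochondrial RNA. In CM-like cells the median number of genes with TPM above 0 was 8458 in control and 9845 in cKO cells of batch 1, and 9679 and 7786 in batch 2, so the genotypes stood in opposite order in the 2 batches. TPM, the transcript abundance scaled by transcript length and to a fixed total in every cell, keeps no sequencing depth, which was therefore unknown. Dgcr8 reached a TPM of at least 1 in 16 of 29 control and 21 of 66 cKO CM-like cells; the value covers the whole gene and does not separate intact transcripts from those without the floxed part. Xist reached that level in 0 of 29 control and 63 of 66 cKO cells and the Y-linked Ddx3y in 19 and 0, so genotype and the sex of the embryos cannot be told apart.

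All 44 members passed the filter used for every gene, a TPM above 0 in more than 10 CM-like cells. The subunits were among the abundant transcripts and the assembly factors were not. The mean TPM of control CM-like cells ran from 68.02 for Ndufb4, the lowest subunit, to 2089 for Ndufa4, which was first described in complex I and is now assigned to cytochrome c oxidase. Ndufab1, the mitochondrial acyl carrier protein, followed with 1365, and Ndufa12, an accessory subunit of the N module, with 1272. Among assembly factors the mean TPM ran from 18.9 for Ndufaf5 to 87.9 for Ndufaf2. A control CM-like cell had a median of 37 of 37 subunits at a TPM of at least 1 and a median of 6 of 7 assembly factors, and a cKO cell had 37 and 4. Several members have processed pseudogenes elsewhere in the genome, so their values depend on how reads were shared among near-identical copies.

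The promoters of members were read for motifs of factors known for nuclear genes of mitochondria: NRF1 (GCGC, any base, then TGCGC), the ETS family, to which GABP belongs (CCGGAAG), and YY1 (AANATGGCG), each on both strands. RefSeq promoters, from 250 bases before to 50 after the start site on GRCm38.p6, were matched for 39 of 44 members. NRF1 letters stood in 9 of 39 members (23.1%, against 5.19% of all 27025 genes with a promoter), YY1 letters in 7 (17.9% against 2.76%) and ETS letters in 5 (12.8% against 9.93%), and no hits of different motifs overlapped. Any of the 3 motifs stood in 20 members (51.3% against 15.9%), namely 17 of 33 subunits and 3 of 6 assembly factors. The background was not limited to genes detected in these cells, as all members were, so the shares are not of like genes. The windows shown are those of the 3 assembly factors with a motif, of 2 subunits with low values in cKO cells and of Ndufs7. Ndufs7 is a core subunit that was not lower in the pooled cells. Windows of other subunits with a motif are left out, such as Ndufb7 (ETS), also low in cKO cells, and Ndufb4 (NRF1). Capitals mark the motif.
Ndufaf1 (ETS, chr2:119662838-119662860, minus strand): gaccacaaCCGGAAGcgtggcga
Ndufaf4 (NRF1, chr4:24897962-24897987, plus strand): agatgtctGCGCATGCGCctgtgcgg
Ndufaf5 (NRF1, chr2:140170654-140170679, plus strand): tcccgttgGCGCATGCGCctaataga
Ndufa8 (NRF1, chr2:36049351-36049376, minus strand): agagcagtGCGCTTGCGCgtcgctgg
Ndufs6 (NRF1, chr13:73328481-73328506, minus strand): actgctgtGCGCCTGCGCcggcactt
Ndufs6 (YY1, chr13:73328433-73328457, minus strand): tcaccggcAAGATGGCGgcggtgct
Ndufs7 (YY1, chr10:80249465-80249489, plus strand): ccgaggccAAGATGGCGgcgctggc
A match of letters is a description and not a binding site. The Ndufaf5 letters and the YY1 letters of Ndufs6 and Ndufs7 begin after the start site, at bases 17, 34 and 25. They thus lie in transcribed sequence, and the other letters shown begin before the RefSeq start site. The NRF1 windows of Ndufa8 and Ndufs6 still lie within the genes as annotated by GENCODE. On the minus strand these begin further upstream, at bases 36049406 and 73328542. Subunits with any of the motifs had a median difference between cKO and control CM-like cells of −0.38 on the log2 scale used below and those without one −0.51, a small difference between groups of subunits that was not tested.

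Subunit transcripts were lower in cKO than in control CM-like cells for most genes, by a small amount. Each gene was averaged as log2(TPM + 1) over the cells of a genotype, and the control average was subtracted from the cKO average. On this scale the difference of a low gene depends on the pseudocount and on how many cells have the gene. The pooled difference was below 0 for 33 of 37 subunits, against 45.3% of all genes, and above 0 for 4, with a median of −0.41 (−0.14 in batch 1 and −0.69 in batch 2). The median over all 15142 genes that passed was 0.04 (0.17 and −0.19). In all, 23 of 37 subunits were lower in both batches, against 25.6% of all genes, 0 were higher in both, against 29.8%, and 14 had opposite signs in the 2 batches. In batch 2 alone 36 of 37 were lower, against 61.6% of all genes, and in batch 1 alone 24 of 37, against 34.1%. A difference of at least 1 log2 unit, lower in both batches, was found for 3 subunits, against 6.42% of all genes, and no subunit was higher by that much (6.43% of all genes). The subunit median was above 0 (0.31) when all cells of each genotype were compared, since the control cells then include other classes with fewer subunit transcripts, and it was 0.29 with 4 clusters, which counted cells led by mitochondrial RNA as CM-like. The plot of differences by gene shows how far the batches lay apart.

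**Figure D1:**
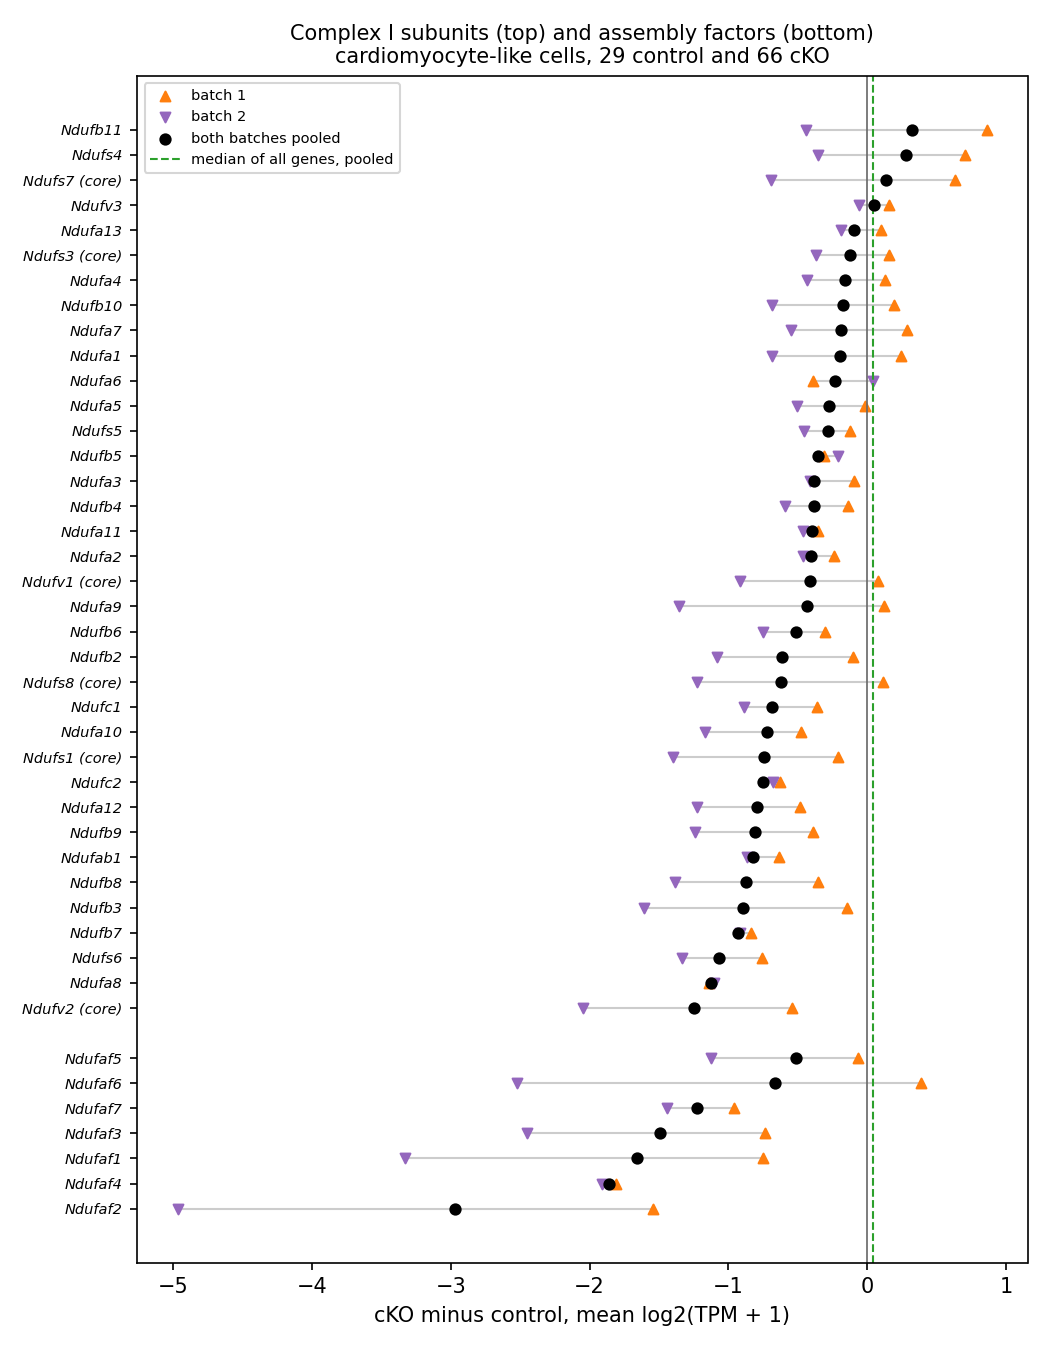
Difference of cKO minus control CM-like cells in mean log2(TPM + 1) for 36 of the 37 subunits (top) and the 7 assembly factors (bottom), pooled (circles), in batch 1 (upward triangles) and in batch 2 (downward triangles); the dashed line is the pooled median of all genes, 0.04. Most circles lie left of 0, batch 2 lies left of batch 1 for nearly all members, and the assembly factors reach from −0.51 to −2.97.

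The 7 nuclear core subunits held the subunit with the lowest difference, Ndufv2, and a subunit above 0, Ndufs7. Ndufv2, which carries an iron-sulfur cluster beside the flavin site, ranged from 13.2 to 1220 TPM in control CM-like cells (median 697) and from 0 to 819 in cKO cells (median 314). The ranges overlapped, but the cKO median was below the control median in both batches (739 against 368, and 665 against 244). On the log2 scale control cells averaged 8.97 ± 1.32 (SD, 29 cells) and cKO cells 7.73 ± 2.02 (66 cells), a difference of −1.25 (−0.54 in batch 1 and −2.05 in batch 2). Ndufs1, the large N module subunit with several iron-sulfur clusters, ranged from 3.54 to 316 TPM (median 159) in control and from 0 to 385 (median 104) in cKO cells, and its difference was −0.75 (−0.21 and −1.40). Both were lower in cKO cells of each batch, and for both the lowest cKO cell was below the lowest control cell.

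Ndufs8, Ndufv1, Ndufs3 and Ndufs7 had opposite signs in the 2 batches. Ndufs8, an iron-sulfur protein of the Q module, had a difference of −0.62 (0.12 in batch 1 and −1.23 in batch 2), and Ndufv1, which binds the flavin and NADH, −0.41 (0.08 and −0.92). Ndufs3, a Q module subunit, had a median of 282 TPM in control (range 3.09 to 504) and 258 in cKO cells (range 1.37 to 897), and a difference of −0.12 (0.16 and −0.37). Ndufs7, which holds the iron-sulfur cluster nearest to ubiquinone, had a median of 652 TPM in control (range 11.7 to 1381) and 584 in cKO cells (range 33.3 to 1417). Its pooled difference of 0.14 joined 0.63 in batch 1 and −0.69 in batch 2, and its pooled distributions overlapped over nearly their whole range. In batch 2 control cells ranged from 519 to 1381 TPM, and the cKO median of 493 was below the lowest control cell.

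Among accessory subunits with the same sign in both batches, Ndufa8 was lowest and its batches were closest. Ndufa8, a cysteine-rich subunit that faces the intermembrane space, ranged from 113 to 1065 TPM in control CM-like cells (median 452) and from 1.57 to 797 in cKO cells (median 235). The ranges overlapped, and the cKO cells extended far below the lowest control cell. On the log2 scale control cells averaged 8.79 ± 0.69 and cKO cells 7.66 ± 1.46, a difference of −1.13 (−1.14 in batch 1 and −1.11 in batch 2). Ndufs6, a zinc-binding N module subunit that is added late in assembly, ranged from 25.8 to 1466 TPM (median 645) in control and from 0 to 1189 (median 358) in cKO cells, with a difference of −1.07 (−0.76 and −1.33). Ndufb7, another cysteine-rich protein of the intermembrane face, had medians of 586 and 376 TPM and a difference of −0.93 (−0.83 and −0.92). Ndufb3, a small membrane subunit of the distal arm, had medians of 175 and 123 TPM and a difference of −0.89 (−0.14 and −1.61), so it rested mostly on batch 2.

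No subunit was higher in both batches, so the highest with 1 sign were still lower in cKO cells. Ndufa5, an accessory subunit of the Q module, ranged from 12.9 to 2251 TPM (median 663) in control and from 71.7 to 2175 (median 494) in cKO cells, with a difference of −0.27 (−0.02 in batch 1 and −0.51 in batch 2). Ndufs5, a cysteine-rich subunit of the proximal arm, had medians of 750 and 538 TPM and a difference of −0.28 (−0.12 and −0.45). Ndufb5, of the distal arm, had medians of 366 and 322 TPM and a difference of −0.35 (−0.31 and −0.21); the pooled value lay outside the batch values because the batches made up unequal shares of the 2 genotypes. All these ranges overlapped widely. Ndufa4, the most abundant member, had medians of 2026 and 2023 TPM and a difference of −0.16 (0.13 and −0.44), and Ndufb4, the least abundant subunit, had medians of 64.2 and 47.9 TPM and a difference of −0.38 (−0.14 and −0.59).

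Both X-linked members had opposite signs in the 2 batches. Ndufb11, a membrane subunit of the distal arm, had the highest difference of all 44 members, 0.33, with 0.86 in batch 1 and −0.44 in batch 2, and medians of 235 TPM in control and 246 in cKO cells. Ndufa1, a small membrane subunit of the proximal arm, had medians of 726 and 637 TPM and a difference of −0.20 (0.24 and −0.69). Both were higher in cKO cells of batch 1 and lower in batch 2, as were most other subunits with opposite signs, and both lie on the chromosome whose silencing transcript Xist followed genotype in these cells; the part of the sex of the embryos in their values was not tested.

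By place in the complex, the median difference was −0.41 over 10 N module subunits (5 lower in both batches), −0.35 over 6 Q module subunits (2 lower in both), −0.40 over 9 proximal arm subunits (7 lower in both) and −0.56 over 10 distal arm subunits (8 lower in both). In batch 1 these medians were −0.22, 0.12, −0.35 and −0.22, and in batch 2 −0.73, −0.74, −0.68 and −0.83, so the Q module was above 0 in batch 1. Core subunits had a median of −0.62 (3 of 7 lower in both batches) and accessory subunits −0.40 (20 of 30). Their order was not the same in the batches: core subunits had 0.08 in batch 1 and −0.92 in batch 2, and accessory subunits −0.19 and −0.68. For comparison, 25.6% of all genes were lower in both batches, and 45.3% of genes at the level and transcript length of the subunits, described below. The shares of the N module (50%), the Q module (33.3%) and the core subunits (42.9%) were near the latter, so they set these groups little apart from like genes. Ndufab1, which sits in both arms and also serves fatty acid synthesis, had a difference of −0.82 (−0.63 and −0.86).

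Assembly factors were lower in cKO CM-like cells by more than the subunits. All 7 had a pooled difference below 0, with a median of −1.49 (−0.75 in batch 1 and −2.45 in batch 2), and 6 of 7 were lower in both batches, against 25.6% of all genes. At least 1 log2 unit lower pooled, with the same sign in both batches, were 5 of 7, against 6.42% of all genes: Ndufaf2, Ndufaf4, Ndufaf1, Ndufaf3 and Ndufaf7. That count depended on low values: it was 1 with a pseudocount of 10 and 3 by the log2 ratio of mean TPM, while the median stayed below 0 in both (−0.68 and −0.79).

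Ndufaf2, which helps to attach the N module, is a paralog of the subunit Ndufa12 and had the lowest difference of all members. Its gene lies on chromosome 13 (108002715 to 108158623, minus strand, GRCm38), and that of Ndufa12 on chromosome 10 (94198720 to 94221443, plus strand). It ranged from 0 to 412 TPM in control CM-like cells (median 59.4) and from 0 to 242 in cKO cells (median 0.880). In batch 2 every control cell was between 28.9 and 412 TPM, while the cKO median was 0 and the highest cKO cell reached 138; in batch 1 the medians were 51.3 and 4.16. It reached a TPM of at least 1 in 25 of 29 control cells (86.2%, exact 95% interval 68.3 to 96.1%) and in 30 of 66 cKO cells (45.5%, 33.1 to 58.2%), intervals that cover counting error only. On the log2 scale control cells averaged 5.21 ± 2.52 and cKO cells 2.24 ± 2.73. The difference of −2.97 (−1.54 and −4.97) was larger than either SD, which held for no other member, and 0.09% of all genes had a lower difference. Ndufa12, its paralog in the finished complex, ranged from 13.5 to 3059 TPM (median 1191) in control and from 51.5 to 2402 (median 713) in cKO cells. It was present in every CM-like cell of both genotypes, and its difference was −0.79 (−0.48 and −1.23).

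Ndufaf4 and Ndufaf3 act together on the Q module and its joining to the membrane. Ndufaf4 ranged from 0.914 to 308 TPM in control CM-like cells (median 36.6) and from 0 to 92.9 in cKO cells (median 15.4). It was the assembly factor with the closest batches: the difference was −1.86, with −1.81 in batch 1 and −1.91 in batch 2. It reached a TPM of at least 1 in 28 of 29 control (96.6%, 82.2 to 99.9%) and 47 of 66 cKO cells (71.2%, 58.7 to 81.7%). Ndufaf3 had medians of 41.1 and 9.21 TPM, was detected in 25 of 29 and 38 of 66 cells, and differed by −1.49 (−0.74 and −2.45). Over the cells with a TPM of at least 1 alone, Ndufaf3 averaged 5.35 (control) and 5.37 (cKO) on the log2 scale, so its difference lay in how many cells had it; for Ndufaf4 these means were 5.15 and 4.35 and for Ndufaf2 6.00 and 4.75.

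Ndufaf1, a chaperone in the assembly of the membrane arm, had a median of 37.7 TPM in control (range 0 to 175) and 0.302 in cKO cells (range 0 to 140). In batch 1 both medians were below 1 TPM (0.977 and 0.351), and in batch 2 they were 45.1 and 0. Its difference was −1.66 (−0.75 and −3.33). Ndufaf7, an arginine methyltransferase, had medians of 39.01 and 14.5 TPM, was detected in 27 of 29 and 48 of 66 cells, and differed by −1.23 (−0.96 and −1.44).

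The remaining assembly factors were the least clear. Ndufaf5, which hydroxylates an arginine of Ndufs7, had medians of 10.1 and 1.34 TPM and a difference of −0.51, of which −0.06 was found in batch 1 and −1.13 in batch 2. Ndufaf6, needed early for the part of the complex built around a mitochondrially encoded subunit, had medians of 47.3 and 0.684 TPM and a pooled difference of −0.66, with 0.39 in batch 1 and −2.52 in batch 2. The share of cells with Ndufaf5 or Ndufaf6 was slightly higher in cKO cells of batch 1 and lower in those of batch 2, as the plot of shares shows.

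**Figure D2:**
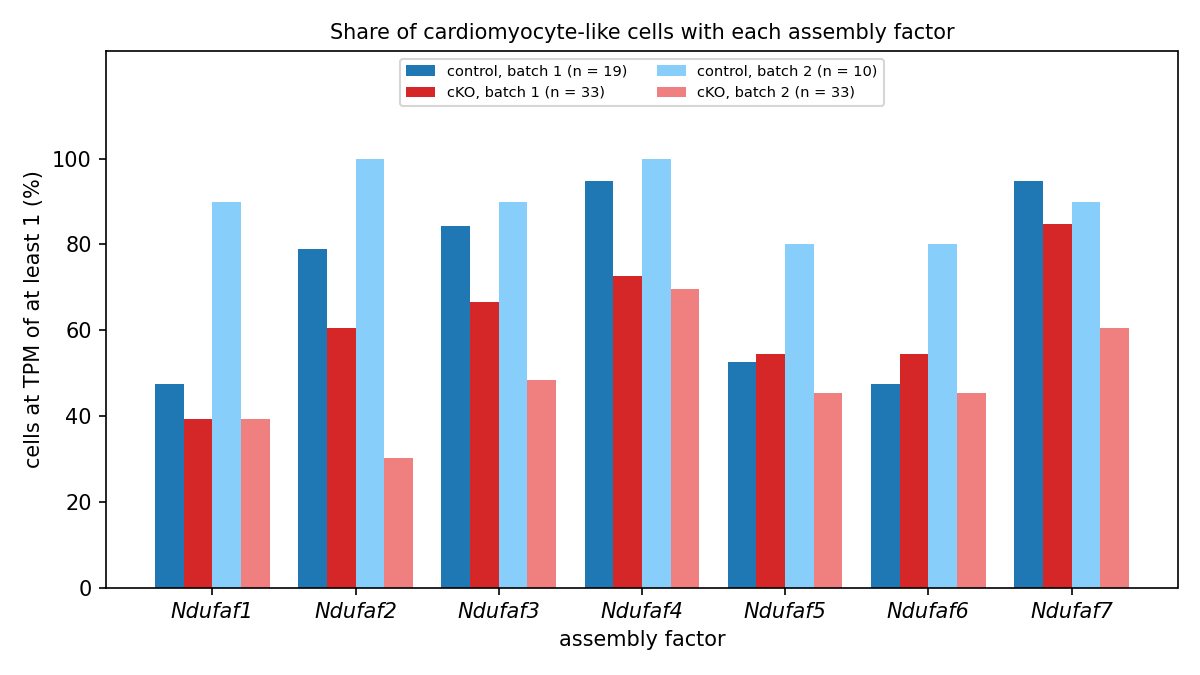
Percent of CM-like cells with a TPM of at least 1 for each assembly factor, in control cells of batch 1 (n = 19) and batch 2 (n = 10) and cKO cells of batch 1 (n = 33) and batch 2 (n = 33). For Ndufaf2 the bars are 78.9% and 60.6% in batch 1 and 100% and 30.3% in batch 2, and for Ndufaf6 47.4% and 54.5% in batch 1 and 80% and 45.5% in batch 2.

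The same values were also averaged within each cell, which restates the gene differences and adds no replicate. The counts of cells below describe 1 sample per genotype and were not made for genes of like level. The mean log2(TPM + 1) over the 37 subunits ranged from 6.02 to 9.29 across control CM-like cells (median 8.76) and from 4.78 to 8.95 across cKO cells (median 8.18). The ranges overlapped, but 60 of 66 cKO cells were below the control median, 30 of 33 in batch 1 and 33 of 33 in batch 2 by each batch's own median. The mean over the 7 assembly factors ranged from 2.06 to 6.08 in control cells (median 4.52) and from 0 to 5.41 in cKO cells (median 2.65). Here 21 of 66 cKO cells were below the lowest control cell, and 61 of 66 were below the control median. In batch 1, 7 of 33 cKO cells were below that batch's lowest control cell and 26 of 33 below its control median. In batch 2 these counts were 14 of 33 and 33 of 33. Subunits made up a median of 2.19% of a control cell's TPM and 1.68% of a cKO cell's.

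**Figure D3:**
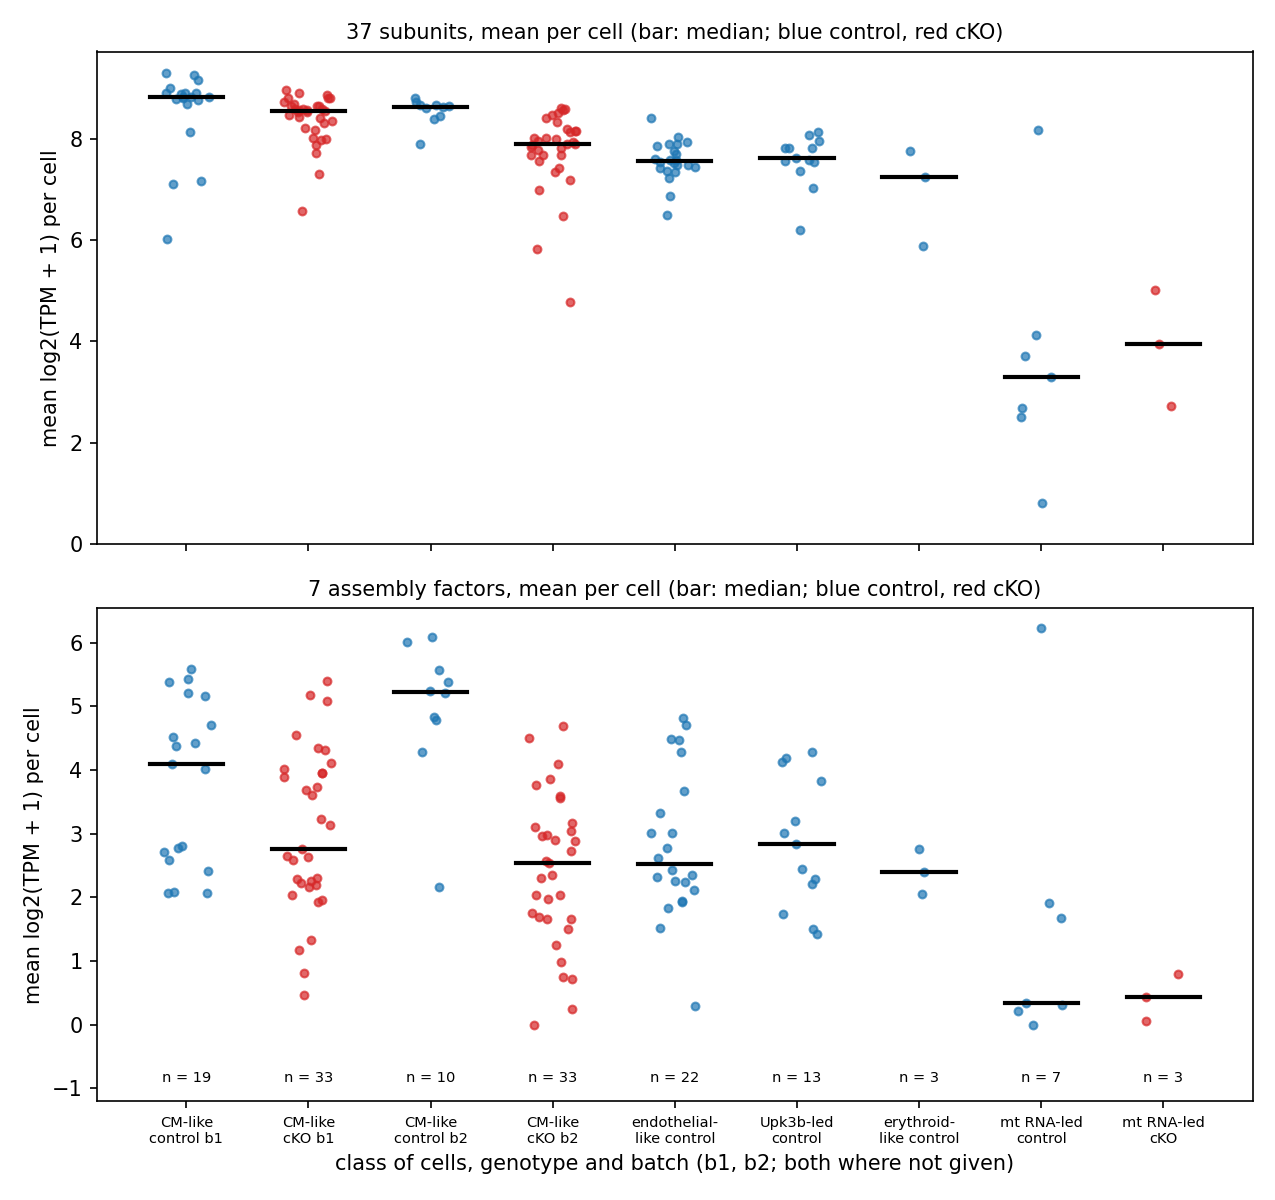
Mean log2(TPM + 1) per cell over the 37 subunits (top) and the 7 assembly factors (bottom), for CM-like cells by genotype and batch (b1, b2) and for the other classes of cells; each point is a cell, control in blue and cKO in red, and bars are medians. The medians of cKO CM-like cells lie below those of control cells in both panels, further so in batch 2, and those of endothelial-like and Upk3b-led control cells lie at 7.55 and 7.61 for subunits and at 2.52 and 2.84 for assembly factors.

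The gap between the families, the subunit mean minus the assembly factor mean of a cell, was 4.33 ± 1.14 (SD) in control and 5.34 ± 1.11 in CM-like cells of cKO hearts. The gap was wider by 1.01 in cKO cells (0.63 in batch 1 and 1.74 in batch 2), which says that the assembly factors were lower by more on this scale. The cKO means of the gap were alike in both batches (5.35 and 5.33), and the control means were not (4.72 and 3.59), so for the gap the batches differed in the control cells. With a pseudocount of 10 the gap was wider by 0.31. The subunit mean itself was alike in control cells of both batches (8.54 and 8.55) and not in cKO cells (8.38 and 7.75), and the assembly factor mean differed between batches in control (3.81 and 4.96) and cKO cells (3.03 and 2.42). Across cells the subunit and assembly factor means had a Pearson r of 0.52 in 29 control and 0.48 in 66 cKO cells. By rank (Spearman) the values were 0.21 and 0.50, so the control value was not alike by the 2 measures. The assembly factor mean had a Pearson r of 0.75 and 0.42 with the number of detected genes, and by rank 0.80 and 0.41. These are descriptions across cells of the same 2 batches, and depth per cell was unknown.

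Because the families differ in level, each was set beside genes at its own level (the mean of the genotype means), a comparison chosen after the values were seen. Of 1171 genes within the level range of the subunits, 40.5% were lower in both batches and 11.9% were at least 1 log2 unit lower, with a median difference of −0.16, beside 62.2%, 3 of 37 and −0.41 for the subunits, whose count past 1 log2 unit was therefore near the background. Limited further to the transcript lengths of the subunits, 863 genes had 45.3% lower in both batches, 14% at least 1 log2 unit lower and a median of −0.28 (0.06 in batch 1 and −0.69 in batch 2). The subunit median of batch 2, −0.69, was thus equal to that of these like genes at this precision, and that of batch 1, −0.14, was below theirs. Of the 863 genes 62.3% were lower pooled, 47.6% in batch 1 and 75.9% in batch 2, beside 33, 24 and 36 of the 37 subunits. Of 2606 genes at the level of the assembly factors, 29% were lower in both batches and 12.4% at least 1 log2 unit lower, with a median of 0.07. At the assembly factors' lengths as well, 1606 genes had 34.1% lower in both batches, 15.9% at least 1 log2 unit lower and a median of −0.08 (0.33 in batch 1 and −0.86 in batch 2). Genes at the assembly factors' level reached a TPM of at least 1 in a median of 68.97% of control and 66.7% of cKO cells, and the assembly factors in a median of 86.2% and 50%.

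**Figure D4:**
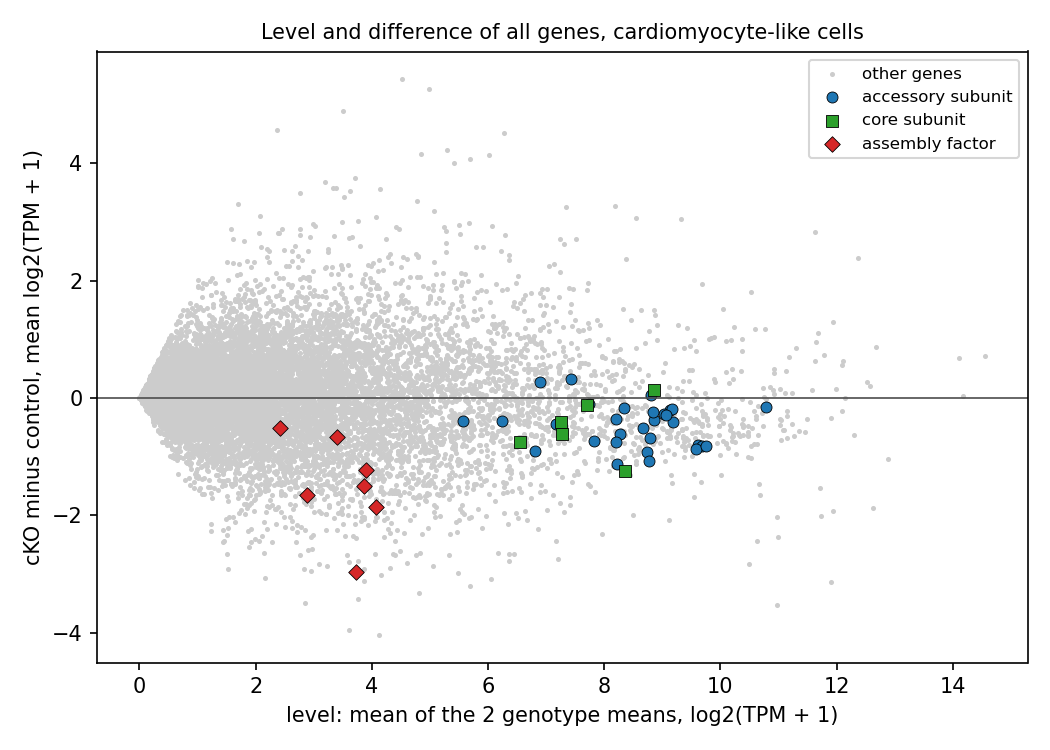
Level of each gene in CM-like cells (mean of the control and cKO means, log2(TPM + 1)) against its difference (cKO minus control), for genes other than the members (grey), accessory subunits (blue circles), 6 core subunits (green squares) and assembly factors (red diamonds). The subunits lie at levels of 5.57 to 10.8 among genes with differences mostly below 0, and the assembly factors lie at 2.42 to 4.08, where the median of the other genes is 0.07.

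Several features of the cells moved with genotype or batch. Mitochondrially encoded RNA made up a median of 6.30% of the TPM of control and 2.95% of cKO CM-like cells. Without the cells above 10% the median difference was −0.54 for subunits and −1.64 for assembly factors, and for cells with 6000 to 11000 detected genes it was −0.46 and −1.49. The 7 erythroid markers together ranged from 0 to 58.2 log2 units in control CM-like cells (median 3.21) and from 0 to 22.3 in cKO cells (median 4.04). In control cells of batch 2 the median was 18.5. All 7 markers had a median of 0 in both genotypes, and all 7 were lower in cKO cells on average. The 14 endothelial markers summed to 2.84 to 25.6 (median 8.54) in control and 1.91 to 24.8 (median 11.3) in cKO cells. Cdh5, Tek, Flt1, Emcn and Plvap were among the 9 with a median of 0 in both genotypes, and Cd34, Egfl7, Kdr, Pecam1 and Tie1 were not. Of the 14, 7 were higher in cKO cells on average and 7 lower. The sums of the 14 mesenchymal markers had medians of 10.1 and 11.8 and those of the 5 epicardial markers 4.71 and 5.93. Without the cells whose summed markers of another class exceeded every cKO cell, the medians were −0.48 for subunits and −1.35 for assembly factors.

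Other genes of complex I, fixed as lists, were also lower. Of 11 assembly factors outside the Ndufaf family, 10 were lower in both batches (25.6% of all genes). At least 1 log2 unit lower were 5 of the 11 (6.42% of all genes), and the list median was −0.77. Tmem261, a factor of the distal membrane arm, was lowest at −2.29 (−2.31 in batch 1 and −2.64 in batch 2), followed by Atp5sl, also of the distal arm, at −1.48, and Foxred1, an oxidoreductase-like factor, at −1.45. Acad9, which works with Ndufaf1 in the membrane arm intermediate, differed by −1.09 (−0.78 and −1.69), its partners Ecsit by −0.77 and Tmem126b by −0.31, and Timmdc1 by −0.06. The 7 subunits encoded by mitochondrial DNA were all lower in both batches, against 25.6% of all genes. At least 1 log2 unit lower were 5 of these 7, against 6.42% of all genes. The 7 ranged from −0.22 for mt-Nd2 to −2.03 for mt-Nd4l, with a median of −1.32. Side by side, the median difference was −0.65 over 4 complex II genes, −0.64 over 9 complex III genes, −0.71 over 16 ATP synthase genes and −1.06 over 77 mitochondrial ribosomal protein genes. The nuclear subunits of complex I, at −0.41, thus had the median closest to 0 of these lists, and that order was not tested.

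Among control cells, which were of several classes, CM-like cells had the highest complex I transcripts. The subunit mean of a cell had a median of 8.76 in CM-like cells (6.02 to 9.29), 7.55 in endothelial-like cells (6.50 to 8.40), 7.61 in Upk3b-led cells (6.20 to 8.13) and 7.25 in the 3 erythroid-like cells (5.87 to 7.75). The mean over endothelial-like cells was below that over CM-like cells by a difference of −0.98, which became −0.021 with 4 clusters, where cells led by mitochondrial RNA counted as CM-like. The endothelial-like and Upk3b-led cells did not differ beyond their spread, and both overlapped the lowest CM-like cells. The assembly factor mean had medians of 4.52, 2.52, 2.84 and 2.40 in the same order. The endothelial-like cell that was highest in both means (8.40 and 4.83) had a cardiomyocyte marker mean of 9.53, against a class median of 3.58. In the 7 control cells led by mitochondrial RNA the subunit mean had a median of 3.29. Of these, 1 cell had only 4.32% mitochondrial RNA, with 8.17 for subunits and 6.23 for assembly factors. For scale, cKO CM-like cells, with a subunit median of 8.18, lay between control CM-like and endothelial-like cells, and their assembly factor median of 2.65 was near that of endothelial-like cells.

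Gene by gene, 35 of 37 subunits were lower in endothelial-like than in CM-like control cells, against 35% of all 13316 genes that passed, and 20 by at least 1 log2 unit, against 9.21%. None was at least 1 log2 unit higher, against 21.4%. The list median was −1.10, and that over all genes was 0.26. Among genes at the level of the subunits 29.6% were lower and 10% by at least 1 log2 unit. Ndufa5 differed most among the named subunits, at 9.16 in CM-like and 7.36 in endothelial-like cells on the log2 scale (−1.80), followed by Ndufa8 with 8.79 and 7.11 (−1.68) and Ndufs6 with 9.30 and 7.70 (−1.61). Ndufb11 and Ndufs8 were the subunits that were not lower, by 0.33 and 0.05. Of the assembly factors 6 of 7 were lower and 5 by at least 1 log2 unit, with a list median of −1.26, against 34% and 12.3% of genes at their level. Ndufaf4 had the largest difference of all members, from 5.00 in CM-like to 1.87 in endothelial-like cells (−3.13), and reached a TPM of at least 1 in 96.6% and 54.5% of them. Ndufaf1 went from 3.71 to 1.29 (−2.42). Within batches the mean over subunits was lower in endothelial-like cells, with a difference of −0.84 in batch 1 and −1.05 in batch 2, and that over assembly factors had −0.46 and −2.36, so the latter rested mostly on batch 2.

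Ndufaf2 stood apart in this respect over the pooled batches. It was not lower in endothelial-like control cells, with 5.85 against 5.21 in CM-like cells (0.65 higher), and it was at 5.65 in Upk3b-led cells. The batches were unequally mixed: 15 of 22 endothelial-like but 10 of 29 control CM-like cells were from batch 2. The control CM-like mean was 4.57 in batch 1 and 6.43 in batch 2, and the latter lay above the pooled endothelial-like mean. Ndufaf2, the member with the lowest difference between genotypes, was detected at 1 TPM or more in most control cells of these classes. The shares were 86.2% of the CM-like (78.9% in batch 1 and 100% in batch 2), 92.3% of the Upk3b-led and 100% of the endothelial-like cells. Ndufaf4, the next by difference, was instead high in control CM-like cells and low in the endothelial-like and Upk3b-led classes (1.87 and 2.52).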

How the data were processed

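The authors mapped Smart-seq2 reads of single cells with Salmon to mm10 and deposited TPM per gene and cell; the version and annotation were not given in the sources used here. Cells with a low mapping rate, or with reporter transcripts that contradicted their genotype, had been removed by the authors. Of 170 labelled samples 143 had a column, matched by title, and 27 were not analysed here; 0 columns were identical. TPM of a cell summed to between 996133 and 999999 and kept no depth, so precision could not be set from reads, which also carried no molecular identifiers.

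Values were taken as log2(TPM + 1). Cells were clustered by Ward linkage on z-scores of 55 markers into 5 clusters. A cluster was named from at least 3 raised markers and its top 10 genes, and these names were rebuilt here and are not the study's annotation. No doublet caller was run, since cells were picked by hand. Genes needed a TPM above 0 in more than 10 CM-like cells. Differences are means of cKO minus control cells, pooled and per batch, without a test, because each genotype was 1 sample. Shares carry Clopper-Pearson 95% intervals. Named genes were all assembly factors, the 7 nuclear core subunits, the 5 lowest and 3 highest subunits with 1 sign in both batches, Ndufa12, X-linked members, Ndufa4 and the extremes of level; others named were chosen after their values were seen. A member that this rule names is not reported here by itself and is left out of the plots by gene, but stays in counts and medians. Lengths came from GENCODE annotation of GRCm38, the same assembly as mm10, for 44 of 44 members. Only the subtraction of means was checked, on simulated normal values with known shifts. That check did not run the main calculation and held no batches or zeros. Python 3.11.15, numpy 2.4.6, pandas 2.3.3, scipy 1.17.1 and matplotlib 3.10.9 were used. Members, lists and markers were chosen with earlier results of these data known.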

Additional observations from a re-analysis of the deposited data

How the results depend on the processing

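Of 15 alternatives, 2 (without cells rich in other classes' markers, and without cells above 10% mitochondrial TPM) and the backgrounds of like level and length were chosen after seeing the data. The median difference of the assembly factors kept its sign under 15 of 15 (−2.45 to −0.29), as did the gap between the families (0.31 to 1.74). The subunit median reversed to 0.29 with 4 clusters, which placed the cells led by mitochondrial RNA in the CM-like class (36 control and 69 cKO cells), and to 0.31 over all cells of each genotype, where control cells include the other classes; Ndufa8 then was at 0.022. The count of members at least 1 log2 unit lower and lower in both batches, 8, became 3 with a pseudocount of 10, 3 by the log2 ratio of mean TPM, 3 with 4 clusters, 1 over all cells and 13 after centring on widely detected genes. The assembly factors in it, 5, became 1, 3, 3 and 1 under the first 4 of these. The difference of control endothelial-like from CM-like cells in the subunit mean, −0.98, became −0.021 with 4 clusters. Apart from these constructions, the cause was not tested. Of 26 named members, 8 kept their sign under every alternative run, and 348 of 390 of their values did. The values of low genes depend on the pseudocount, and sequencing depth per cell is unknown. No paired analysis was possible because replicate numbers name individual cells here, which do not match between genotypes, and nothing was tested.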
